A study of Gallus gallus with 4 samples.

Results

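Histones and the proteins that modify, read and move them were examined as targets of c-Myc in chicken muscle cells. The genes were chosen by symbol: histones and their variants, deacetylases including sirtuins, lysine demethylases, methyltransferases, bromodomain and ING proteins, SWI/SNF and CHD remodellers, DNA methylation enzymes, high mobility group proteins, the Polycomb protein EED and the histone chaperone subunit SSRP1. The rule took 52 of the 4832 genes named in the peak lists. Of these, 11 were named in the myotube list and 50 in the myoblast list, and HDAC3 and SIRT3 were named in myotubes but not in myoblasts. The KMT, EZH and KAT symbols of the rule took no gene, so those enzymes were not analysed here.

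DNA in the nucleus is wrapped around octamers of core histones, closed off by linker histone. Writers and erasers add or remove acetyl and methyl groups on histone tails, readers with bromodomains or PHD fingers bind the marked tails, and remodellers slide, evict or exchange nucleosomes. c-Myc is a transcription factor that binds DNA together with MAX and is known for recruiting chromatin-modifying cofactors to promoters and for driving growth and division, whereas myoblasts leave the cell cycle when they fuse into myotubes.

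Chromatin immunoprecipitation followed by sequencing was carried out in primary cells of chicken embryo skeletal muscle at passage 1. Cells of both states were grown with 15% FBS. Myotubes were then obtained by moving cells to RPMI-1640 with 2% horse serum, and proliferating myoblasts were kept in RPMI-1640 with 15% FBS. Both media held penicillin and streptomycin. Each state gave 1 library with the c-Myc antibody (abcam, ab56) and 1 with control IgG (bioss, bs-0310P), 4 libraries in all, from cells with no labelled genetic change, and the labels name no embryo or pool. There was no replicate, so no test between the states was possible, every difference is one between single libraries, and the intervals given (exact, 95%) cover counting error only. Intervals on shares take genes or peaks as independent draws, which genes of a cluster may not be.

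Sequencing depth with the c-Myc antibody was 8.65M tags in myotubes and 11.5M in myoblasts, where M stands for 1e+06, and with IgG it was 19.3M and 16.1M. The deposited lists held 1061 peaks of 154 bp in myotubes and 19354 peaks of 200 bp in myoblasts, and 0.161% of c-Myc tags in myotubes and 2.58% in myoblasts fell into peaks. The smallest peaks of the lists held 9 c-Myc tags in myotubes and 8 in myoblasts. A peak missing from a list is therefore not a site without c-Myc, and the smaller myotube list has to be read at its own background. Fewer cells with c-Myc on a site and less c-Myc per cell cannot be told apart in bulk chromatin. The labelled cell type could not be checked against markers, since peak lists hold no expression.

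In myotubes a c-Myc peak lay within 1000 bp of the transcription start site (TSS) of 2 of the 52 genes, SSRP1 and SMARCE1. This was 3.85% (0.469% to 13.2%), beside 1.37% of all named genes. In myoblasts 20 of the 52 genes had such a promoter peak, 38.5% (25.3% to 53.0%), beside 22.0% of all named genes and 21.8% of the 4780 genes outside the rule. SSRP1 had a promoter peak in both states, which was 1.92% of the genes beside 0.373% of all. Counting any assigned peak, 11 genes (21.2%, beside 18.3% of all) were named in myotubes and 50 (96.2%, beside 98.6%) in myoblasts. The myotube share was close to the background. The myoblast share is high by construction, since the myoblast list names 4766 of the 4832 genes. Genes without a peak in either list are in none of these denominators. The myoblast share depended on the window. Within 500 bp it was 10 of 52 genes, 19.2% beside 16.8% of all, so that most of the margin over the background came from peaks 500 to 1000 bp from the TSS.

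**Figure D1:**
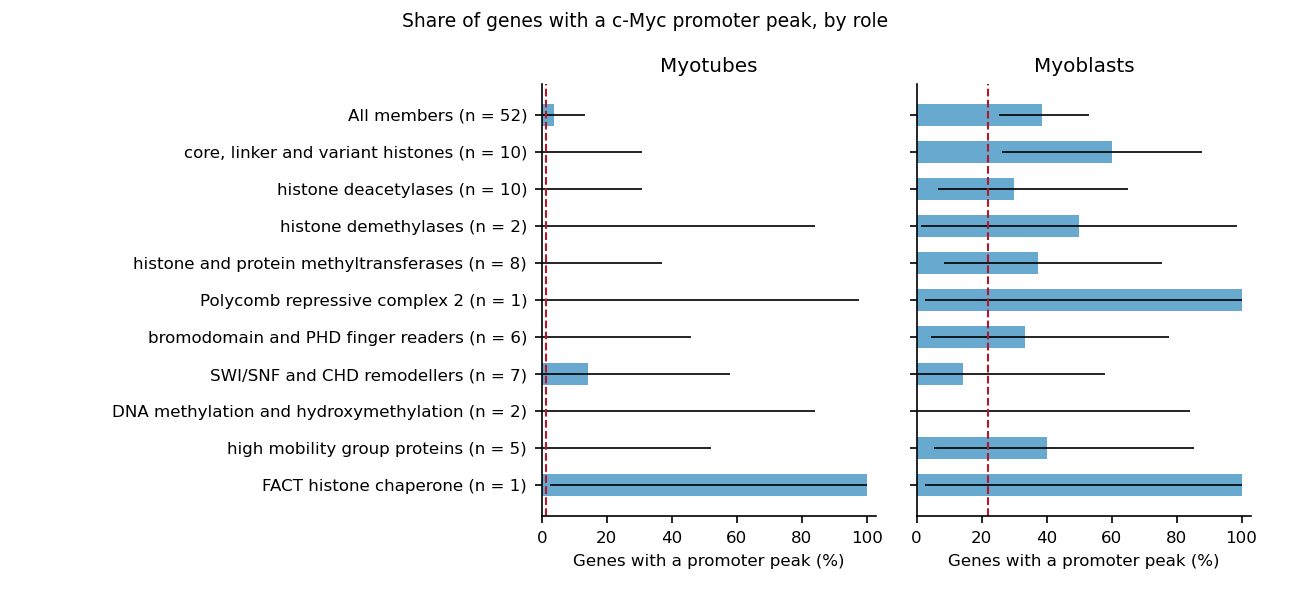
Percent of genes with a c-Myc peak within 1000 bp of the TSS, by role, in myotubes (left) and myoblasts (right); lines are exact 95% intervals and the dashed line is the share of all 4832 named genes (1.37% and 22.0%). Among histones 0 of 10 genes in myotubes and 6 of 10 in myoblasts had a promoter peak, and the intervals of single roles are wide.

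FACT, the histone chaperone that opens nucleosomes ahead of polymerases, was represented by its subunit SSRP1. In myotubes its promoter peak was centred 187 bp upstream of the TSS (chr5:16332481-16332635, galGal4) and held 12.0 c-Myc tags and 3.5 IgG tags. In myoblasts the peak was centred 862 bp downstream (chr5:16333507-16333707) and held 21.0 c-Myc and 4.5 IgG tags. Per 10M tags of each library, c-Myc signal was 13.9 (7.17 to 24.2) in myotubes and 18.3 (11.3 to 28) in myoblasts, so the intervals overlap. IgG signal was 1.82 in myotubes and 2.80 in myoblasts on that scale. The peak centres lay 1049 bp apart, so both peaks fall at the SSRP1 promoter but not on the same bases. A further myotube peak lay 7775 bp upstream of SSRP1, with 12.0 c-Myc and 6.5 IgG tags.

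Histone genes gave the largest number of myoblast promoter peaks. A promoter peak was found at 0 of 10 histone genes in myotubes (up to 30.8% by the interval), beside 1.37% of all named genes. In myoblasts 6 of 10 had one (60.0%, 26.2% to 87.8%), beside 22.0%. No histone gene had any myotube peak assigned to it, beside 18.3% of all named genes with such a peak, a share that the interval for 0 of 10 includes. H3F3B, which encodes the replacement histone H3.3, had the highest score among them at the promoter, with a peak 409 bp upstream of its TSS (chr18:4680520-4680720) that held 20.5 c-Myc and 3.0 IgG tags in myoblasts. H3F3C, the other H3.3 gene in the annotation, had 14.5 c-Myc and 5.0 IgG tags 143 bp downstream (chr3:16487178-16487378). H2AFZ encodes H2A.Z, a variant placed at promoters; its peak 199 bp upstream (chr4:59766721-59766921) held 14.5 c-Myc tags and 0.0 IgG tags, which allows up to 2.29 IgG tags per 10M. H2AFY2, a macroH2A gene, had 16 c-Myc and 4.0 IgG tags 870 bp upstream (chr6:11569387-11569587), while the related H2AFY had no peak nearer than 4.13 kb, in intron 1 of 8.

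Replication-dependent histone genes lie in a cluster on chromosome 1. The span examined, positions 47929067 to 48032614 (103.5 kb), was set by the outermost peaks assigned to HIST genes, all of them myoblast peaks. Within it the myoblast list held 9 peaks and the myotube list 0, beside 19354 and 1061 peaks in the whole lists. The bounds come from the myoblast list, so these counts do not compare the states. Of the 9 peaks, 7 were assigned to 5 HIST genes and 2 to genes without a HIST symbol, an H2A-IV-like and an H3.2-like gene. The peaks carried 13.5 to 19.5 c-Myc tags and 1.0 to 6.0 IgG tags each. They included HIST1H2B7, an H2B gene with a peak 61 bp upstream of its TSS (chr1:47929067-47929267; 16 and 1.0 tags), and HIST1H46, an H4 gene with a peak 896 bp downstream (chr1:47953193-47953393; 18.0 and 6.0 tags). The highest score of the cluster, 18.3 tags per 10M, was 2217 bp upstream of HIST1H2A4 in a CpG island, 1 of 3 peaks there in CpG islands. Histone genes of this cluster are near-identical copies, so the gene to which a peak is assigned is uncertain. Without HIST symbols, 18 of 47 genes (38.3%) kept a promoter peak in myoblasts.

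Deacetylases remove acetyl groups from histones and other proteins, and sirtuins do so with NAD. Promoter peaks were found for 0 of 10 in myotubes and 3 of 10 in myoblasts, beside 1.37% and 22.0% of all named genes. The intervals, up to 30.8% in myotubes and 6.67% to 65.2% in myoblasts, include those shares. HDAC2, a class I enzyme of corepressor complexes, was the one gene of the 52 with a pair of promoter peaks in myoblasts. That is 1 of 20 genes with a myoblast promoter peak. Over all named genes 43 of 1063 had 2 or more, a similar share, so a pair is not particular to HDAC2. The HDAC2 peak 594 bp downstream of the TSS (chr3:64239883-64240083) held 21.0 c-Myc and 0.0 IgG tags. The peak 254 bp upstream (chr3:64239035-64239235) held 12.5 and 3.0 tags. SIRT7, a sirtuin of the nucleolus, had 17.0 c-Myc and 6.0 IgG tags 425 bp upstream (chr18:10238334-10238534), and HDAC11, the class IV enzyme, had 13.5 and 2.0 tags 228 bp downstream (chr12:5687532-5687732). The myotube peaks of this role lay farther off. HDAC3, catalytic subunit of the NCoR and SMRT corepressors, had 15.0 c-Myc and 4.5 IgG tags 31.9 kb upstream and 10 and 2.5 tags 14.7 kb downstream, with no peak in the myoblast list. The mitochondrial sirtuin SIRT3 had 12.0 and 4.0 tags 5.63 kb upstream, also without a myoblast peak. HDAC9, a class IIa enzyme that binds MEF2 factors in muscle, had a myotube peak in intron 2 of 25 and 3 intronic myoblast peaks, none at the promoter.

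Of the 2 lysine demethylases, KDM3A, which acts on histone H3, had a myoblast peak 616 bp downstream of its TSS (chr4:85139930-85140130) with 19.5 c-Myc and 5.0 IgG tags. A further myoblast peak of KDM3A stood outside the window at 1527 bp with 20.0 and 6.0 tags. KDM5B had a myotube peak 28.7 kb upstream (13 and 2.0 tags) and its closest myoblast peak 2053 bp upstream (17.0 and 0.0 tags). Methyltransferases had promoter peaks at 0 of 8 genes in myotubes and 3 of 8 in myoblasts, beside 1.37% and 22.0% of all named genes. SETD3, known in mammals as the methyltransferase of a histidine of actin rather than of histones, had 19.0 c-Myc and 2.0 IgG tags 316 bp downstream in myoblasts (chr5:47906281-47906481). PRMT7, an arginine methyltransferase, had 17.5 and 2.0 tags 518 bp downstream (chr11:283819-284019), and SETD5 15.0 and 1.0 tags 115 bp upstream (chr12:11367417-11367617). EED, the subunit of Polycomb repressive complex 2 that binds the methylated tail, had 16 and 2.5 tags 204 bp downstream in myoblasts (chr1:189669633-189669833) and no myotube peak.

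Readers had promoter peaks at 0 of 6 genes in myotubes and 2 of 6 in myoblasts, beside 1.37% and 22.0% of all named genes. The 2 were BRD7, a bromodomain subunit of the PBAF remodeller, and ING3, a PHD finger subunit of the NuA4 acetyltransferase complex. BRD7 held 13.5 c-Myc and 1.5 IgG tags 753 bp upstream in myoblasts (chr11:5991936-5992136), and ING3 held 15.5 and 4.0 tags 896 bp upstream (chr1:23211993-23212193). The myotube peaks of BRD1 (407.5 kb downstream) and ING4 (26.2 kb downstream, in a CR1 retroelement) were distal. The genes grouped as remodellers, which here include the ARID symbols, had 1 promoter peak among 7 genes in each state, at different genes. Each share was 14.3% (0.361% to 57.9%), and both background shares lie within that interval. SMARCE1, the HMG-box subunit of SWI/SNF, had a myotube peak 385 bp upstream (chr27:4498573-4498727) with 11 c-Myc and 1.0 IgG tags. Its myoblast peak lay 1018 bp upstream with 15.0 and 5.0 tags, just outside the window, and the centres were 633 bp apart. ARID4A, a partner of the SIN3 corepressor, had 19.5 c-Myc and 1.0 IgG tags 733 bp upstream in myoblasts (chr5:55154985-55155185).

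High mobility group proteins bend DNA or bind nucleosomes without enzymatic activity. Their promoter peaks numbered 0 of 5 in myotubes and 2 of 5 in myoblasts, beside 1.37% and 22.0% of all named genes. HMGB2, abundant in dividing cells, had 16 c-Myc and 2.0 IgG tags 684 bp upstream (chr4:42743585-42743785), and HMGN3 had 14.0 and 4.5 tags 790 bp upstream in myoblasts (chr3:78876464-78876664). The gene ID of HMGN3 carries another symbol in a newer annotation, as does that of SETD1B. HMGA2, an oncofetal architectural protein, had no promoter peak but 4 of its 6 myoblast peaks in intron 2 of 3, each with 16 to 18.5 c-Myc tags and 1.0 to 6.0 IgG tags. No peak was found within 1000 bp of DNMT3A or TET2 in either list.

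**Figure D2:**
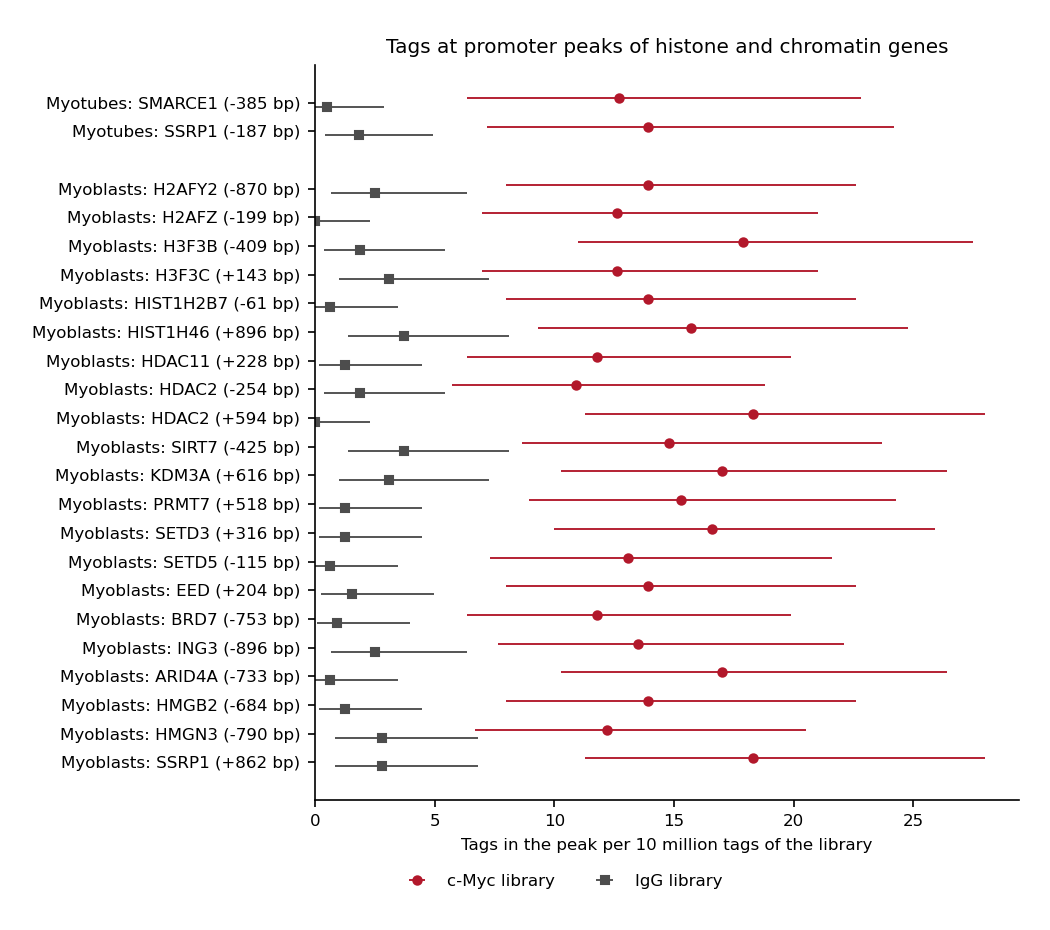
Tags in each promoter peak per 10M tags of the library, for c-Myc (circles) and IgG (squares), with exact 95% Poisson intervals; the 2 myotube peaks stand above the 21 myoblast peaks, with the distance from the TSS in brackets. Every c-Myc point lies to the right of its IgG point, as the calling of peaks requires, and the c-Myc intervals of all 23 peaks overlap one another.

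The strength of the promoter peaks was set beside that of all promoter peaks, also with no test. The median score, given by the authors and equal to c-Myc tags per 10M, was 12.7 in myotubes (2 peaks) and 13.9 in myoblasts (21 peaks). Over all promoter peaks it was 13.9 in myotubes (67 peaks) and 13.5 in myoblasts (1106 peaks). Summed over the promoter peaks, the 52 genes held 23.0 c-Myc and 4.50 IgG tags in myotubes and 350.0 and 60.0 tags in myoblasts. Scaled to depth, the ratio of c-Myc to IgG was 11.4 in myotubes and 8.18 in myoblasts, beside 9.27 and 7.39 for all promoter peaks. In the authors' deposited table the fold over IgG of these promoter peaks ran between 7.0 and 24.5 in myotubes and up from 4.10 in myoblasts. The highest myoblast folds there, at HDAC2 and H2AFZ, rest on peaks with 0.0 IgG tags, listed at 0.4 scaled tags, and are not measured ratios. Among the other myoblast promoter peaks the authors' deposited table gives the highest fold to ARID4A, 27.3, over 1.0 IgG tags. The highest myotube fold, at SMARCE1, also rests on 1.0 IgG tags. No score is corrected for the different peak widths of the lists.

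The position of the promoter peaks around the TSS was described for myoblasts, with no test. Their median distance was 518 bp, beside 245 bp over all 1106 promoter peaks, and 10 of 21 lay within 500 bp, beside 834 of 1106 (75.4%). They fell upstream in 12 of 21 cases (57.1%), beside 57.8% of all promoter peaks. Just inside the window were ING3 and HIST1H46, both at 896 bp, and H2AFY2 at 870 bp. Just outside were SMARCE1 at 1018 bp upstream, KDM3A at 1527 bp and SETD1B at 1739 bp downstream.

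**Figure D3:**
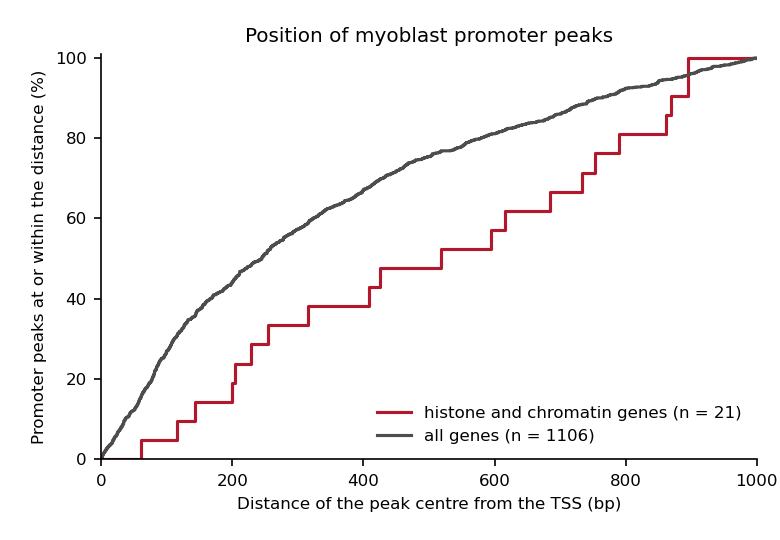
Cumulative percent of myoblast promoter peaks against the distance of the peak centre from the TSS in bp, for the histone and chromatin genes (21 peaks) and for all genes (1106 peaks). The line of the histone and chromatin genes runs below that of all genes up to about the edge of the window, with medians of 518 and 245 bp.

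Most peaks of these genes were distal. Of 13 myotube peaks 2 (15.4%) and of 178 myoblast peaks 21 (11.8%, 7.45% to 17.5%) lay within 1000 bp of the TSS, beside 6.31% and 5.71% of all peaks. Intergenic peaks made up 76.9% in myotubes and 69.7% in myoblasts, beside 77.0% and 77.1% of all peaks, and intron peaks 7.69% and 15.7%, beside 12.1% and 13.6%. The median distance to the TSS was 26.2 kb in myotubes and 43.5 kb in myoblasts, beside 43.8 and 57.0 kb for all peaks. Taking the closest peak of each gene, the median was 26.2 kb in myotubes and 3.01 kb in myoblasts, beside 37.3 and 7.84 kb for all named genes. Of the 50 genes named in myoblasts, 9 had their closest peak between 1000 and 5000 bp and 21 beyond 5000 bp. Of the 52 genes, 38.5% had a myoblast peak within 1000 bp, beside 22.0% of all named genes. Within 5000 bp it was 55.8%, beside 40.6%, so the margin over the background lay within 1000 bp. The closest myoblast peaks of BRD1, CHD1 and SUV39H2 were more than 100 kb away. Each peak is assigned to the nearest annotated TSS, so a distal peak may belong to another gene.

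The strongest myoblast peaks of the 52 genes, down to a score of 18.7, were distal. DNMT3A, a de novo DNA methyltransferase, had the highest score, 39.2 tags per 10M, at a CpG island 34.9 kb downstream of its TSS (chr3:104217685-104217885). This peak held 44.5 c-Myc and 5.0 IgG tags and ranked 22 in the myoblast list. A second DNMT3A peak 16 kb upstream held 26.0 c-Myc and 8.5 IgG tags. The remodeller gene CHD1 had 26.0 and 7.5 tags in a simple repeat 185.2 kb upstream, and SETD5 had 23.5 and 2.5 tags 23.9 kb upstream. H2AFZ had 21.5 and 5.0 tags, a score of 18.7, in a simple repeat 308.8 kb upstream. Below these, the HIST1H2A4 peak 2217 bp upstream scored 18.3. The promoter peaks of H3F3B and KDM3A scored 17.9 each, as did a CHD7 peak 454.4 kb downstream. In myotubes the highest score was 17.3, at the HDAC3 peak 31.9 kb upstream. The largest numbers of assigned peaks were 11 at HMGB2, 9 at TET2 and 8 each at CHD7, HDAC2, H2AFZ and BRD1, all in myoblasts. The median myoblast gene had 3 peaks, both among these genes and over all named genes, where the largest number was 41. TET2, which oxidises methylated cytosine, had its peaks between 6.45 and 127.0 kb from the TSS. CHD7 had 4 of its 8 peaks in introns, HDAC4 had 4 of its 5 in introns, and all 8 peaks of BRD1 lay 215.7 kb or more downstream.

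**Figure D4:**
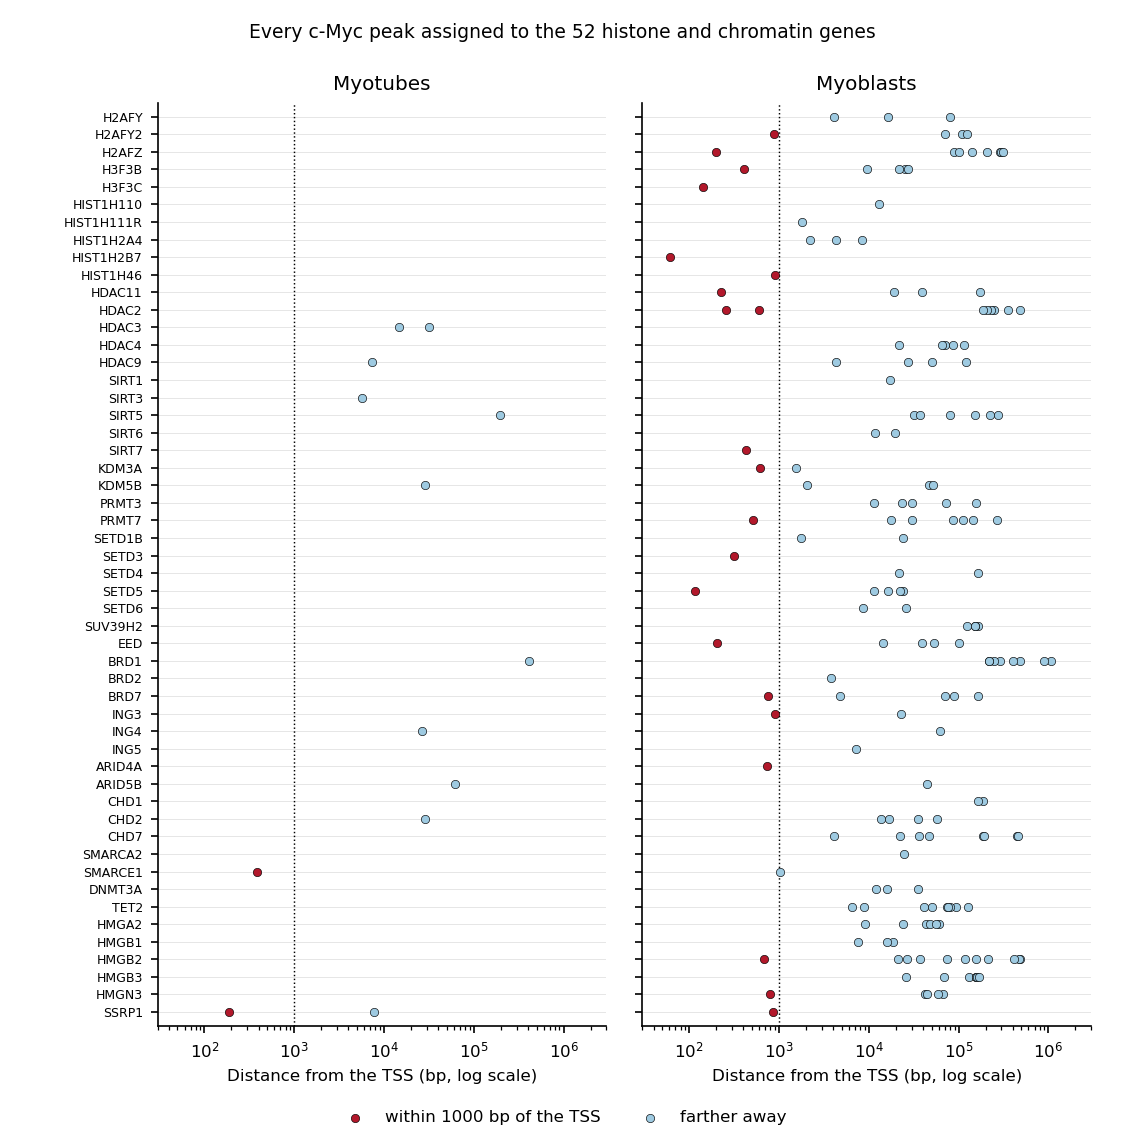
Distance of every assigned c-Myc peak from the TSS (bp, log scale) for each of the 52 genes, in myotubes (left, 13 peaks) and myoblasts (right, 178 peaks); red points lie within 1000 bp. Red points stand at 2 genes in myotubes and 20 genes in myoblasts, and most points lie beyond 5000 bp.

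The positions of the myotube peaks were set against the myoblast list. None of the 13 shared even 1 bp with a peak of the myoblast list (0 of 13), which allows up to 24.7%, beside 74 of all 1061 myotube peaks (6.97%). The bound includes that share, so the count does not stand apart from the background. By the measured distance, 2 peaks had a myoblast peak centre within 1000 bp (BRD1 at 639 bp and SMARCE1 at 633 bp), and the SSRP1 promoter pair was 1049 bp apart centre to centre. The myotube peak of CHD2, 28.8 kb upstream of its TSS, lay 6.15 kb from the nearest myoblast peak, and those of ARID5B and SIRT5 lay 17.6 and 28.1 kb away. Of the 11 genes named in myotubes, 9 (81.8%) were also named in myoblasts, beside 92.5% of all genes named in myotubes. Of the 19 genes with a promoter peak in myoblasts alone, SIRT7 had the nearest myotube peak, 18.5 kb away at ALYREF, and ING3 the farthest, 2398.4 kb away.

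The myoblast counts were repeated at equal list length, and whether list length accounts for the contrast between the states was not tested. With as many myoblast peaks as there are myotube peaks, taken by score, 2 of the 52 genes (3.85%, beside 3.10% of all) had a myoblast promoter peak, H3F3B and KDM3A. The myotube list also gave 2 genes (3.85%, beside 1.37% of all), but the myoblast count depends on a tie. Over all named genes the myoblast share at equal length, 3.10%, was thus still above the myotube share. Peaks tied at the last score, from rank 989 on, were taken in chromosome order. That order left out the HDAC2 promoter peak, which has the same score, 17.4. With myoblast peaks of at least the tags that the lowest myotube caller score needs after scaling to depth and width (18.9 tags), 5 genes did (9.62%, beside 4.97%): ARID4A, H3F3B, HDAC2, KDM3A and SIRT7.

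Chromatin genes outside the rule served as a comparison. Of 237 listed symbols 78 were named in the peak lists. In myotubes a promoter peak was found for 0 of 78 (up to 4.62%), a bound that includes the 1.37% of all named genes. In myoblasts it was found for 19 of 78 (24.4%, 15.3% to 35.4%), a share near the background of 22.0%. They included CHAF1A and CHAF1B, large and middle subunits of the chaperone that places histones behind the replication fork, with 16 and 11 c-Myc tags and 2.0 and 5.5 IgG tags. ANP32B, a histone chaperone, and JMJD8, a jumonji domain protein, had the highest scores, 20.9 tags per 10M each. SIN3A, the scaffold of the corepressor that HDAC2 joins, had 16 c-Myc and 2.0 IgG tags 578 bp downstream of its TSS. By group the myoblast counts were 5 of 14 coactivators and corepressors, 4 of 12 chaperones and 2 of 15 readers and Polycomb proteins. They were 1 of 7 remodellers and 2 of 17 proteins of chromosome architecture. The group listed as methyltransferases and demethylases gave 5 of 13, which were JMJD8, JMJD4, JMJD6, ASH2L and SMYD4. The groups are lists of symbols, and enzyme activity was not checked.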

How the data were processed

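Reads were processed by the authors with CASAVA 1.8.2, Trimmomatic 0.30, FastQC 0.10.1, Bowtie2 2.1.0 and HOMER 4.6 on galGal4, per the submitters' processing notes. Peaks were called in each state from 1 c-Myc library against 1 IgG library and annotated, per the file headers; the sources used here do not give the calling options. The deposited score is the authors' c-Myc tags per 10M, and the signal columns are the authors' tags per peak, unscaled, in multiples of 0.5. The fold over IgG, a ratio, and the p-value (at most 5.50e-05 in myotubes and 8.09e-05 in myoblasts) are those of the authors' caller, with a fold of at least 4.00; the deposited fraction column was not used. The score is from calling and the tags are from annotation, so they can differ for a peak.

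Members were matched by symbol with Python 3.11.15 and pandas 2.3.3, and all 52 gene IDs were found in the RefSeq table of GRCg7b, used for names only. A promoter peak was centred within 1000 bp of the authors' nearest TSS. Overlap used bedtools 2.31.1, intervals (Clopper-Pearson and Poisson, 95%) scipy 1.17.1. The counting was checked on simulated data. The members, the role lists and the other chromatin genes were chosen with earlier results of these data known. Named genes are those with a promoter peak or a myotube peak, the 10 highest peaks of each list, the 5 genes with most peaks, the peaks at the window's edge, and some others chosen after their values were seen (H2AFY, HMGA2, HDAC4, SUV39H2, and the genes beside a peak).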

Additional observations from a re-analysis of the deposited data

How the results depend on the processing

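Of 41 alternatives run on the counts, 24 stayed within 1.5 times the value in the text and 17 moved further. For genes with a promoter peak in myotubes (2), counting the nearest gene at any distance gave 11 and the upper 50% of the list by score gave 0. The upper 50% kept peaks tied at the median, so it held 604 of 1061 myotube peaks and 10524 of 19354 myoblast peaks. Both myotube promoter peaks were tied at rank 605, the first score below that cut. In myoblasts (20), a window of 500 bp gave 10, any distance 50, and a fold of at least 6 over IgG and the local region 4. With that fold, the share was 7.69% beside 5.36% of all genes. Equal list length, with tied scores taken by chromosome order, gave 2, and at least 18.9 tags at calling gave 5. In both states (1, SSRP1), a window of 500 bp, the stricter fold, the upper 50% and equal list length each gave 0. The shares of all genes there were, in that order, 0.290%, 0.0828%, 0.145% and 0.0414%. A window of 5000 bp gave 2 (3.85%, beside 1.16% of all) and any distance 9 (17.3%, beside 16.9%). Assigned peaks numbered 6 in myotubes (against 13) in the upper 50%, and in myoblasts (against 178) 58 with the stricter fold and 112 in the upper 50%. Myotube peaks within 1000 bp of a myoblast peak, edge to edge, numbered 3 (against 0 overlapping): BRD1, SMARCE1 and SSRP1. That was 3 of 13 (23.1%), beside 151 of all 1061 myotube peaks (14.2%). A window of 5000 bp (29 myoblast genes, 55.8% beside 40.6% of all) and the upper 50% of the myoblast list (18 genes, 34.6% beside 15.2%) stayed within 1.5 times. Leaving out HIST genes or genes with another current symbol, and counting genes named in the same list, were chosen after seeing the data and moved no count further. The planned counts of E-box motifs in promoters were not run, since promoter sequence was not used here. No paired analysis was possible because each state has 1 library per antibody. In both lists single peaks hold few tags, a median of 12.0 in myotubes and 14.5 in myoblasts, so that values of single peaks have wide counting intervals.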
